A study of Mus musculus with 60 samples.

Results

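The 9 genes described here, Bcl11b, Foxp1, Foxp2, Ebf1, Meis2, Rarb, Rxrg, Six3 and Dlx6, encode transcription factors of striatal neurons. They were picked by symbol, and all 9 were found among the 47574 gene entries used in each of 60 RNA-Seq libraries of mouse brain. The libraries carry labels for 10 groups of 6 (3 males and 3 females), all from C57BL/6N mice aged 3 months, and the study asked whether a shortened exon 12 of Htt, the huntingtin gene, changes the transcriptome. The Δ12 line carries an Htt allele with a deletion within exon 12 and a new splice donor, made by editing embryonic stem cells, as +/+, Δ12/+ or Δ12/Δ12 animals. The KO line, as +/+ or KO/+ animals, descends from a founder in which that edit failed and left an imprecise deletion, so it stands for 1 founder. Cortex and striatum are labelled for each genotype, and the +/+ groups of both lines are the controls. The labels do not say whether the cortex and striatum of a group came from the same mice, and p-values measure the spread between these libraries. The measurement is the FPKM of each gene (fragments per kilobase of transcript, set against the mapped fragments of the library). It is a level per transcript length. Differences between libraries still went with transcript length (below), which limits comparisons between genes. Each library was divided by its median ratio to the geometric mean of 13235 entries, and the result is called scaled FPKM below.

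Most neurons of the striatum are GABAergic spiny projection neurons, which fall into a direct pathway with the dopamine receptor gene Drd1 and an indirect pathway with Drd2. Their fate is set by a set of DNA-binding factors that stay on in the adult. Bcl11b (also called Ctip2) is a zinc finger factor needed for the maturation of these neurons and is also made by subcerebral projection neurons of cortical layer 5. Foxp1 and Foxp2 are forkhead factors of spiny neurons that are also found in parts of the cortex. Ebf1 is a helix-loop-helix factor tied to the direct pathway, and Six3 is a homeodomain factor tied to the indirect pathway. Meis2 and Dlx6 are homeodomain factors of the ventral forebrain, and Rarb and Rxrg are nuclear receptors that pair with each other and respond to retinoic acid.

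The labels of the libraries do not hold throughout. Slc17a7, the vesicular glutamate transporter of cortical projection neurons, was between 121 and 234 FPKM as deposited in 30 libraries and between 4.81 and 64.8 FPKM in the other 30. With a limit of 100 FPKM, the former are called cortex-like and the latter striatum-like, and each class held 15 libraries labelled cortex and 15 labelled striatum. All Δ12-line libraries labelled +/+ or Δ12/+, and the Δ12/Δ12 libraries labelled male, were cortex-like. All KO-line libraries, and the Δ12/Δ12 libraries labelled female, were striatum-like. All 12 markers of striatal projection neurons had striatum-like libraries wholly above the cortex-like ones, beside 19.3% of all entries. Of 9 cortical neuron markers other than Slc17a7, only 1 (Emx1) was wholly lower, beside 16.9% of all entries. In 30 of 60 libraries the transcripts Xist and Ddx3y matched the sex on the label. In 5 of the 12 libraries labelled KO/+, deposited Htt FPKM reached the lowest +/+ library of the same line and labelled tissue. The paper describes a truncated transcript from the KO allele, and its part in the Htt FPKM was not tested. This overlap alone therefore does not show a wrong label. Groups are named as labelled throughout. The estimated depth was 12.7 to 19.4 M fragments in the cortex-like and 16.4 to 27.5 M fragments in the striatum-like libraries.

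In the files (GRCm38), Bcl11b lies at chr12:107910403-108003602, Foxp1 at chr6:98925338-99522721, Meis2 at chr2:115863064-116065839 and Rarb at chr14:16430842-16575472, all on the minus strand. On the plus strand lie Foxp2 (chr6:14901349-15441977), Ebf1 (chr11:44617317-45008091), Rxrg (chr1:167598384-167639623), Six3 (chr17:85613608-85629302) and Dlx6 (chr6:6863334-6868568). The promoters of 7 of the 9 genes were held in the RefSeq table used (GRCm38.p6), as 11 windows of 300 bases that run from 250 bases before to 50 after a start site. Foxp2 and Dlx6 had no entry. The windows of Rarb, Six3 and Meis2 are shown because Six3 had the largest and Meis2 the smallest difference between the tissues, and because Rarb is itself a retinoic acid receptor gene. Capitals mark matches, on either strand, to 8 motifs: GTTCA followed after 6 bases of any kind by GTTCA (a direct repeat of the kind that retinoic acid receptors bind), AGGTCA (a nuclear receptor half-site), TGTTTAC (forkhead), TAATTA (homeodomain), TGACAG (Meis), TCCC followed after 2 bases of any kind by GGGA (Ebf), CCAAT (written ATTGG on the other strand) and TATAAA. The sequences are at chr14:16575427-16575726 (minus strand), chr17:85620584-85620883 (plus strand) and chr2:116064570-116064869 (minus strand), each written 5′ to 3′.
Rarb: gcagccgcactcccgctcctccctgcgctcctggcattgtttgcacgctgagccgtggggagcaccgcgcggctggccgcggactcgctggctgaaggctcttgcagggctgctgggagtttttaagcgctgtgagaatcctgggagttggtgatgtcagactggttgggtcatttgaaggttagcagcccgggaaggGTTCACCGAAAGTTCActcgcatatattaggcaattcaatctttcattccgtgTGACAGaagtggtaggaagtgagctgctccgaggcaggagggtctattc
Six3: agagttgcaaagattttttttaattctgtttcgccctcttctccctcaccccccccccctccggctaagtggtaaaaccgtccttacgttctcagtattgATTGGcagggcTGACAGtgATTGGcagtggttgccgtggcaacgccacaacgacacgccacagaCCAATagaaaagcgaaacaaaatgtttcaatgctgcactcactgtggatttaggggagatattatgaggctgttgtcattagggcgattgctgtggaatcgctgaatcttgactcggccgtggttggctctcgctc
Meis2: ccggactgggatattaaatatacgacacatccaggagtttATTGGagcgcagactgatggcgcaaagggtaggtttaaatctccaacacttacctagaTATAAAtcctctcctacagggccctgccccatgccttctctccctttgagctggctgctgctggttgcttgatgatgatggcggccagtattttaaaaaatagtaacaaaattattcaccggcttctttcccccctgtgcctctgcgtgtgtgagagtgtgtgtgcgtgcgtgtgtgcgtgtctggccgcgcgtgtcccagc
The direct repeat was found in the Rarb window alone of the 11, starting 52 bases before the start site, and in 0.0761% of all 32851 promoter windows. The Meis motif was present in windows of Foxp1, Rarb and Six3 (3 of the 11 windows, against 19.2% of all). CCAAT lay in windows of Foxp1, Meis2, Rxrg and Six3 (4 of 11, against 37.4% of all), and Six3 held it at 3 places. TATAAA was found in the windows of Bcl11b and Meis2 (13.6% of all), AGGTCA in a window of Rxrg (16.3%) and TAATTA in a window of Foxp1 (5.29%), and TGTTTAC (3.65% of all) and the Ebf motif (0.904%) in none of the 11. These matches describe letters only, and no binding was measured.

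Median levels differed between the tissue classes in every member, and most in Six3. Six3, in scaled FPKM, ran from 9.85 over a median of 14.4 to 16.4 in the striatum-like libraries, and from 0.210 over 0.491 to 4.22 in the cortex-like ones, a ratio of medians of 29.3. Bcl11b ran from 42.3 over 75.0 to 101 against 4.54, 6.74 and 27.0, a ratio of 11.1. Dlx6 ran from 7.59 over 15.9 to 22.9 against 0.247, 1.51 and 4.46, a ratio of 10.6. In these 3 genes every striatum-like library was above every cortex-like one. The retinoid receptors followed closely. Rarb was at 16.6, 22.7 and 30.6 (lowest, median, highest) against 1.38, 2.31 and 7.47, and Rxrg at 22.1, 35.3 and 49.0 against 1.84, 3.77 and 13.0, with ratios of 9.86 and 9.35. Foxp2 was at 8.94, 13.5 and 16.9 against 0.914, 1.76 and 5.14, a ratio of 7.67. The ranges of these 3 genes were apart as well. Of all 16076 entries with a mean scaled FPKM of at least 0.5, 19.3% were wholly higher and 16.9% wholly lower in the striatum-like libraries, beside 6 of 9 members wholly higher. The classes were set by expression, so these values are a description with no test. In tissue RNA, a change in the number of cells of a type cannot be told from a change in RNA per cell.

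**Figure D1:**
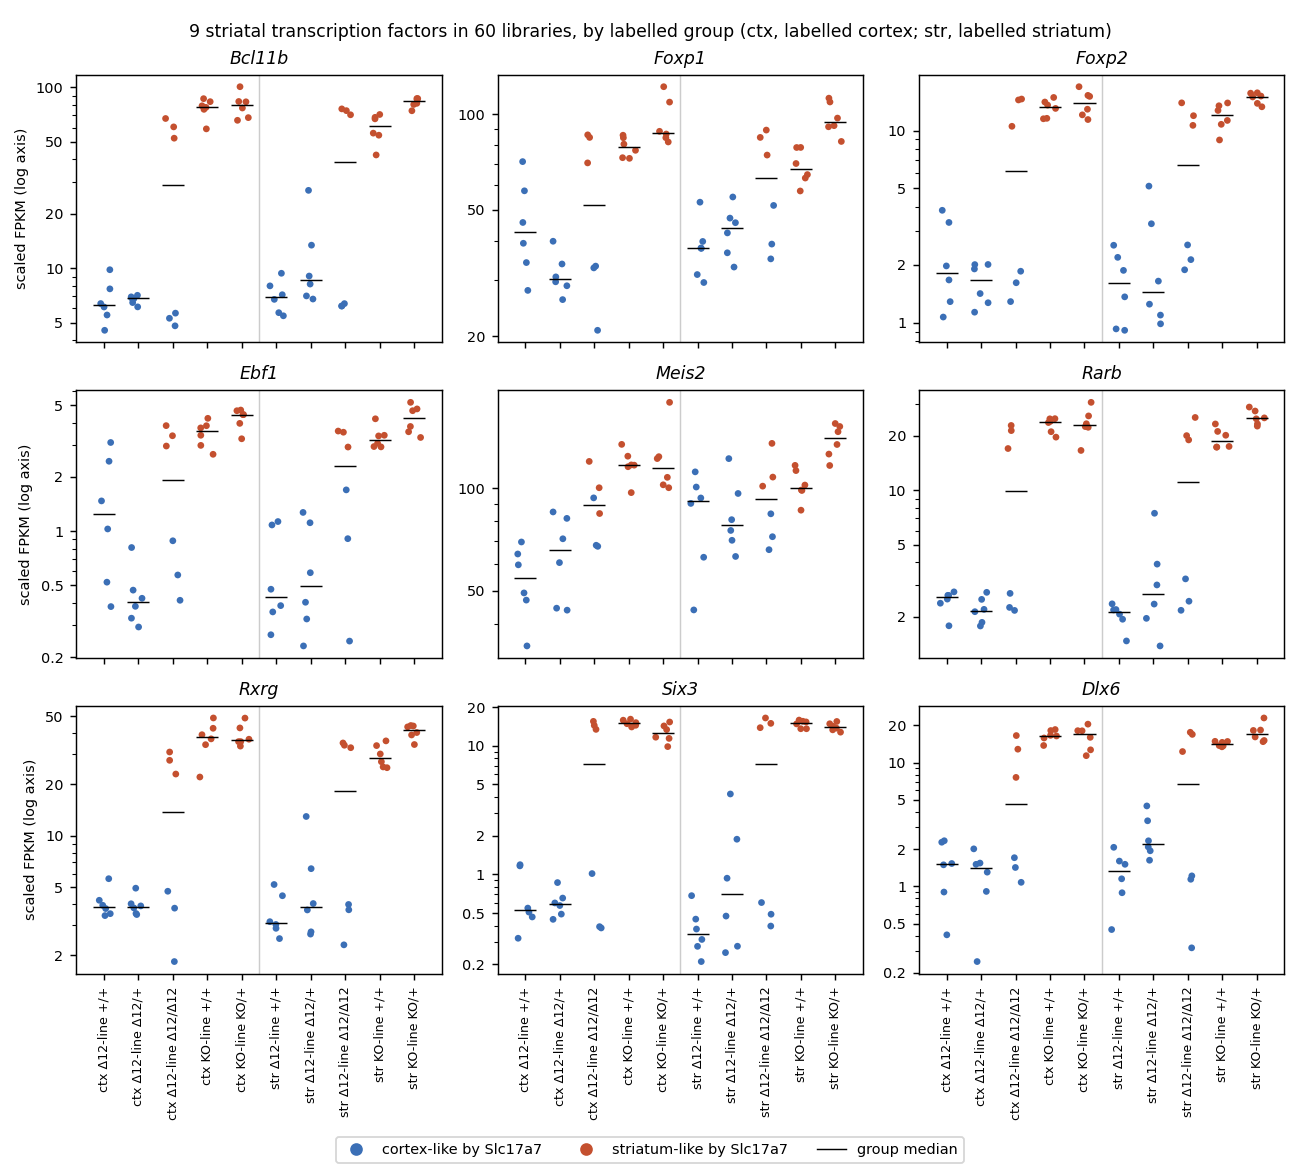
Scaled FPKM (log axis) of each member in the 60 libraries, with the 10 labelled groups on the x axis, points coloured by the tissue class set from Slc17a7 and bars at group medians. The KO line and 3 of 6 libraries in each Δ12/Δ12 group sit high for Bcl11b, Rarb, Rxrg, Six3, Dlx6 and Foxp2. Meis2, Foxp1 and Ebf1 overlap between the classes.

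Foxp1, Meis2 and Ebf1 overlapped between the classes. Of the 30 striatum-like libraries, 5 for Foxp1, 19 for Meis2 and 7 for Ebf1 did not exceed the highest cortex-like one. Foxp1 was at 57.4, 84.4 and 122 in the striatum-like libraries and at 20.9, 37.2 and 71.0 in the cortex-like ones, a ratio of 2.27, and 2 cortex-like libraries reached the striatum-like range. Meis2 was at 84.4, 117 and 179 against 34.5, 70.0 and 122, a ratio of 1.67, and 8 cortex-like libraries lay within the striatum-like range. Ebf1 was the lowest of the 9 in the striatum-like libraries, at 2.67, 3.58 and 5.18 against 0.231, 0.499 and 3.10, and a single cortex-like library, labelled cortex Δ12-line +/+ female 1, lay above the lowest striatum-like one. The confidence intervals in the deposited tables are wide for this gene. Their median half-width was 138% of the Ebf1 value in cortex-like and 40.4% in striatum-like libraries, against 10.5% and 4.26% for Bcl11b. Among the striatum-like libraries the coefficient of variation lay between 10.3% (Six3) and 20.1% (Rxrg), with a median of 14.9% over all entries, and among the cortex-like ones between 27.6% (Foxp1) and 105% (Six3).

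The difference between the classes went with transcript length across protein-coding genes. The median log2 difference, on log2(scaled FPKM + 0.5), was -1.29 for genes with a longest transcript of at most 1000 nucleotides, -0.76 up to 2000, -0.01 up to 4000, 0.50 up to 8000 and 0.82 above that. Against its own length class, Six3 (3680 nucleotides) stood 3.92 higher, Rxrg (2110) 3.07, Rarb (3108) 3.06 and Dlx6 (2216) 3.04. Bcl11b (8111 nucleotides) stood 2.56 above its class, Foxp2 (6760) 2.13 and Ebf1 (5981) 1.53. Foxp1 (7177) stood 0.67 and Meis2 (5498) 0.23 above the median of genes of their length. The part of transcript length in these differences was not tested.

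**Figure D2:**
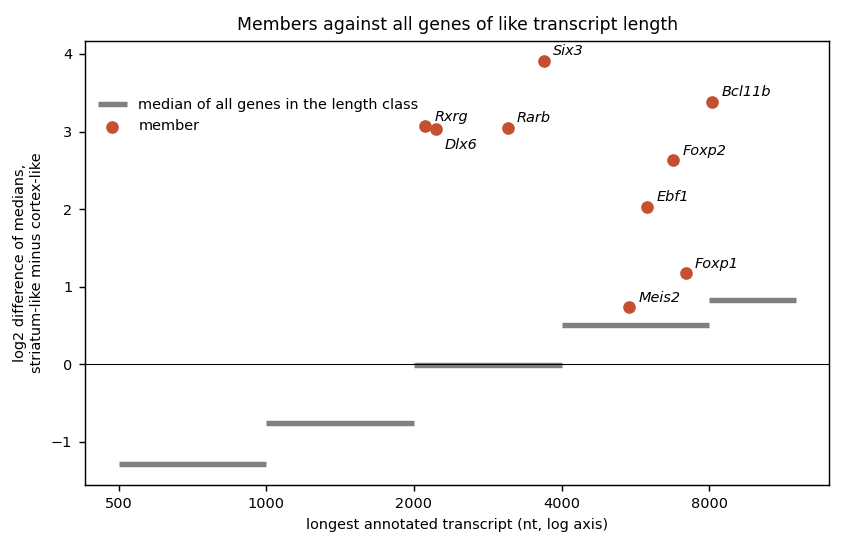
Log2 difference of the medians, striatum-like minus cortex-like, of each member against its longest annotated transcript (nucleotides, log axis), with grey bars at the median of all protein-coding genes in 5 length classes. Meis2 and Foxp1 lie nearest to the bar of their class (0.23 and 0.67 above) and Six3 farthest (3.92 above).

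The order of levels was nearly the same in both classes. In the striatum-like libraries Meis2 was highest, followed by Foxp1, Bcl11b, Rxrg, Rarb, Dlx6, Six3, Foxp2 and Ebf1. Meis2 exceeded Foxp1 in 30 of 30 libraries and Foxp1 exceeded Bcl11b in 25 of 30. Bcl11b stood above Rxrg, Rxrg above Rarb, and Rarb above Dlx6 in all 30. Dlx6, Six3 and Foxp2 could not be ordered, since Dlx6 was above Six3 in 21 and Six3 above Foxp2 in 19 libraries, and all 30 had Foxp2 above Ebf1. In the cortex-like libraries the first 5 genes kept these places, and Foxp2, Dlx6, Ebf1 and Six3 came last. There, Ebf1 exceeded Six3 in 17 of 30 libraries and Foxp2 exceeded Dlx6 in 18, so neither pair was ordered beyond its spread. The members differ in transcript length, and its part in these orders was not tested.

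A single cortex-like library stood apart. In male 3 of the group labelled striatum, Δ12 line, Δ12/+, Bcl11b was at 27.0, Foxp2 at 5.14, Rarb at 7.47, Rxrg at 13.0, Six3 at 4.22 and Dlx6 at 4.46, the highest of the 30 cortex-like libraries for each of these 6 genes. Its Slc17a7 was the lowest of the class, at 121 FPKM as deposited against a median of 187, and so nearest to the limit of 100. Its Drd2, at 18.5 FPKM as deposited (median 0.918), and its Ttr, a choroid plexus gene, at 423 (median 7.68), were the highest of the class. The part of other tissue in these values was not tested. The next library for Bcl11b, Rarb, Rxrg and Six3 was the one labelled Δ12/+ male 2 of the same group, at 13.4, 3.91, 6.44 and 1.88. The mean log2(scaled FPKM + 0.5) of the 12 striatal projection neuron markers was also highest in these libraries, at 5.39 and 4.23 against a median of 3.17. Over the 30 cortex-like libraries Pearson's r with that mean was 0.83 for Rarb (permutation p adjusted over the 9 genes = 0.00018) and 0.79 for Six3 (0.0003), and Spearman's rho was 0.57 and 0.50. Without the 2 libraries farthest from the median, r fell to 0.44 and 0.32. Foxp2 had r = 0.70 and 0.48 without them, and Rxrg had r = 0.74 (rho = 0.30) and 0.29 without them. For Bcl11b r was 0.74 and then 0.03, so its relation rests on those libraries. Meis2 (r = 0.02) and Ebf1 (0.14) had the smallest r. The 30 libraries pool labelled genotypes, and the permutation treats libraries of all their labelled groups as exchangeable.

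Within the striatum-like libraries, Six3 was the member that went down as cortical neuron markers went up. Against the mean of 9 such markers (Slc17a7 left out), Six3 had r = -0.71 (permutation p adjusted over the 9 genes = 9e-05) and rho = -0.54 (adjusted p = 0.023). Without the 2 farthest libraries r was -0.56, and over the 24 KO-line libraries alone it was -0.72. Each of these sets pools labelled genotypes, and the permutation treats libraries of all labelled groups as exchangeable. The 3 lowest values, 9.85, 11.4 and 11.7, all came from libraries labelled cortex KO-line KO/+. These libraries also had the 3 highest marker means (2.15, 2.10 and 2.16), and leaving out 2 libraries did not remove them all. The relation was not tested within a labelled genotype, so it does not separate labelled genotype from cortical marker level. On FPKM as deposited r was -0.35 (adjusted p = 0.23) and rho -0.12, so the relation depends on the scaling between libraries. The other 8 members had r between -0.11 (Dlx6) and 0.35 (Bcl11b), with adjusted p of at least 0.27.

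**Figure D3:**
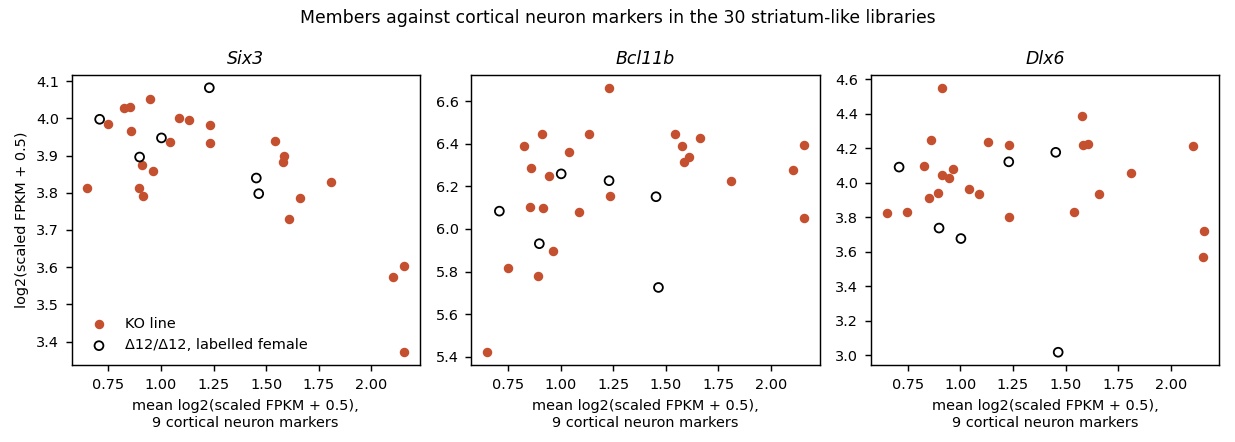
Log2(scaled FPKM + 0.5) of Six3, Bcl11b and Dlx6 in the 30 striatum-like libraries against the mean of 9 cortical neuron markers on the same scale, with filled points for the KO line and open circles for the Δ12/Δ12 libraries labelled female. Six3 falls to the right (r = -0.71), with its 3 lowest libraries at the far right, while Bcl11b (r = 0.35) and Dlx6 (r = -0.11) show no such course.

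In libraries labelled striatum, 5 of the 9 members were higher in the KO line's KO/+ group than in its +/+ group. Bcl11b was at 80.5, 74.3, 85.6, 86.8, 86.8 and 81.7 scaled FPKM in the 6 libraries labelled KO/+, against 42.3, 54.4, 68.3, 67.0, 70.9 and 55.9 in those labelled +/+. Foxp1 was at 112, 82.2, 97.3, 109, 92.1 and 91.4 against 64.6, 63.0, 78.7, 57.4, 78.6 and 70.0. The groups did not overlap in these 2 genes. Of all 15808 genes tested, 2.1% were wholly higher and 2.48% wholly lower in the KO/+ libraries. By limma with Benjamini-Hochberg adjustment over all genes, Bcl11b rose by a log2 fold change of 0.48 ± 0.10 (SE, n = 6 and 6, adjusted p = 0.015) and Foxp1 by 0.50 ± 0.10 (adjusted p = 0.010). Meis2 rose by 0.43 ± 0.08 (adjusted p = 0.0064), from 86.3 to 117 (median 101) in +/+ to 117 to 155 (median 141) in KO/+, and here 5 of 6 KO/+ libraries were above all +/+ libraries. The retinoid receptors rose too, Rxrg by 0.47 ± 0.09 (adjusted p = 0.0097), from 25.1 to 36.0 (median 28.7) to 34.2 to 44.2 (median 41.8), and Rarb by 0.38 ± 0.08 (adjusted p = 0.016), from 17.3 to 23.3 (median 18.8) to 22.6 to 28.8 (median 25.0). In each, 5 of 6 KO/+ libraries exceeded all those labelled +/+. The share of all genes called higher was 4.4% (695 of 15808), and 597 genes were called lower.

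The other 4 members did not pass. Foxp2, at 13.3 to 15.7 against 8.94 to 13.9, had a log2 fold change of 0.32 (adjusted p = 0.069), Dlx6 of 0.29 (adjusted p = 0.084) and Ebf1 of 0.30 (adjusted p = 0.13). Six3 had -0.07 (95% interval -0.18 to 0.04, adjusted p = 0.45), with medians of 13.9 in KO/+ and 15.1 in +/+. The scaling bears on these calls. On FPKM as deposited, Foxp1 alone of the 9 passed (adjusted p = 0.034), while Bcl11b had 0.39, Meis2 0.34, Rxrg 0.37 and Rarb 0.28. That scale called 27 genes higher and 321 lower, against 695 and 597 on scaled FPKM. The 10 highest entries held 29.6% of FPKM in KO/+ male 1 and 36.7% in KO/+ male 3. They held 60.9% to 86.6% in the other KO/+ libraries labelled striatum and 68.1% to 82.7% in the +/+ ones. The part of this in the calls was not tested.

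Other genes moved with the members in this comparison. All 12 striatal projection neuron markers were called higher, with a median log2 fold change of 0.44 against 0.02 for all genes tested, among them Drd1 at 0.46, Drd2 at 0.51 and Penk at 0.54. All 4 thalamic markers (Tcf7l2, Prkcd, Lef1 and Tnnt1) were called lower, with a median of -1.58. Their summed level was 38.7 to 67.2 scaled FPKM in the libraries labelled +/+ and 7.69 to 16.5 in those labelled KO/+. All 4 hypothalamic peptide genes (Pmch, Hcrt, Oxt and Avp) were called lower as well, their sum being 6.16 to 139 against 0 to 1.55, with Hcrt listed at 0 in every KO/+ library. The 4 oligodendrocyte markers with an entry, of 5 listed, were called lower (median -0.41), their sum being 891 to 1071 against 733 to 825. Of 4 septal markers, 2 were called lower, their sum being 12.8 to 17.8 against 8.01 to 10.6. The sum of the 12 striatal projection neuron markers was 1467 to 2016 in +/+ against 2058 to 2686 in KO/+. The ranges of these sums did not overlap. The labelled genotype therefore cannot be told apart here from the content of striatal projection neuron, thalamic, hypothalamic, septal and oligodendrocyte RNA. Cortical neuron markers were called higher in 3 and lower in 1 of 9. Slc17a7 exceeded 20 FPKM in the 3 libraries labelled KO/+ male and in 1 labelled +/+, and without these 4 no member passed and 62 genes were called, with log2 fold changes of 0.43 for Bcl11b, 0.39 for Foxp1, 0.51 for Meis2, 0.38 for Rarb and 0.53 for Rxrg. All KO/+ libraries left in that fit were labelled female, so it has fewer libraries and labelled sex is not balanced in it. With labelled sex in the model, its contrast rests on the labelled females. In the full comparison Htt had a log2 fold change of -0.14 (adjusted p = 0.47).

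**Figure D4:**
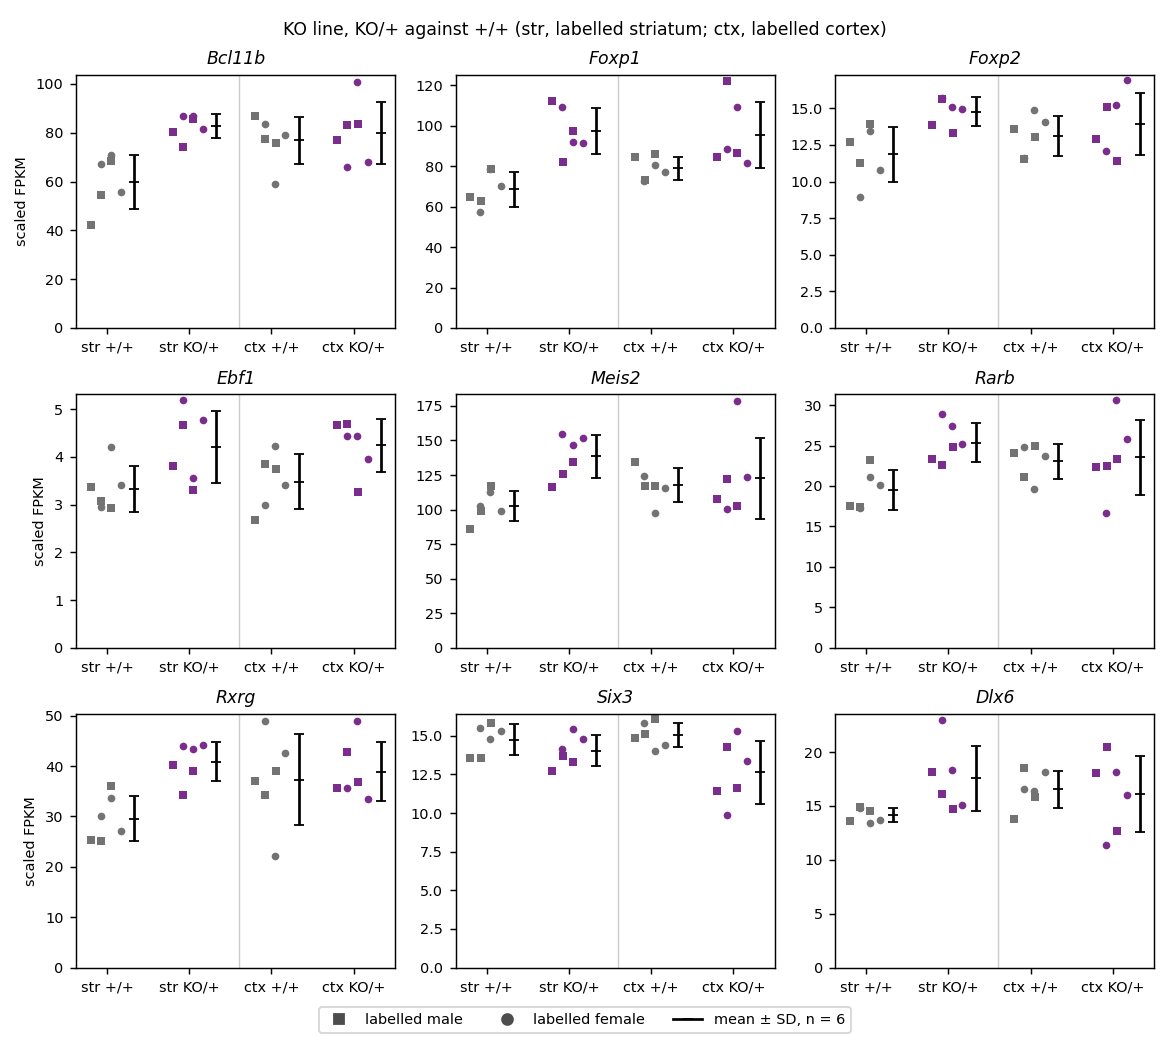
Scaled FPKM of the 9 members in the KO line, with +/+ in grey and KO/+ in purple for libraries labelled striatum (left pair) and cortex (right pair), squares for labelled males, circles for labelled females, and the mean ± SD of 6 libraries. In the left pair the Bcl11b and Foxp1 groups do not overlap (at most 70.9 against at least 74.3 for Bcl11b), and in the right pair all 9 genes overlap.

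In libraries labelled cortex of the same line, none of the 9 members passed, beside 18 of 15820 genes called (0.114%). Log2 fold changes of KO/+ over +/+ ran from -0.26 for Six3 (95% interval -0.46 to -0.05, adjusted p = 0.25) to 0.26 for Foxp1 (0.04 to 0.48, adjusted p = 0.27), and Bcl11b was at 0.05. The thalamic sum was 10.5 to 37.9 in +/+ and 5.82 to 26.7 in KO/+ there, the hypothalamic sum 1.79 to 28.1 and 0.365 to 1.17, and the septal sum 10.6 to 13.2 and 7.73 to 10.1, the last 2 without overlap. The difference between the labelled tissues in the KO/+ effect was tested as an interaction in limma over 24 libraries. It was 0.43 ± 0.17 for Bcl11b, 0.39 ± 0.16 for Meis2, 0.38 ± 0.20 for Rxrg and 0.37 ± 0.15 for Rarb (log2, SE), with adjusted p of at least 0.34. Of 15917 genes, 0 passed this test and 1841 had an unadjusted p under 0.05.

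The Δ12/+ genotype showed no call among the members. In libraries labelled striatum, log2 fold changes over +/+ ran from 0.03 (Ebf1) to 0.83 (Dlx6, 95% interval 0.24 to 1.41), with adjusted p of 1.00 for each gene, and 1 of 15077 genes was called (0.00663%). Dlx6 was at 2.33, 1.63, 4.46, 2.08, 3.39 and 1.94 in Δ12/+ against 0.448, 1.15, 1.51, 2.07, 1.6 and 0.888 in +/+, and the groups overlapped. In libraries labelled cortex they ran from -0.90 (Ebf1, adjusted p = 0.52) to 0.24 (Meis2), and 8 of 15095 genes were called (0.053%).

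For Δ12/Δ12, the groups mix the tissue classes, as the labelled males were cortex-like and the labelled females striatum-like. In libraries labelled striatum, Six3 was at 0.604, 0.397 and 0.490 in the labelled males and 13.8, 16.4 and 14.9 in the labelled females, against 0.210 to 0.684 in all 6 labelled +/+. Bcl11b was at 6.18, 6.18 and 6.37 and then 70.6, 74.4 and 76.1, against 5.46 to 9.38. With labelled sex as a covariate, 6 members were called higher than in +/+ (Six3 by a log2 of 2.17, Rarb 1.70, Bcl11b 1.59, Rxrg 1.53, Foxp2 1.51 and Foxp1 0.63), beside 14.9% of all 15467 genes. Without that covariate no member and 9 genes passed, with the tissue class as a covariate no member and 19 genes, and in labelled males alone no member and 10 genes. Six3 did not pass the filter on low values in that last fit. The fits with tissue class and in labelled males estimate the same contrast, Δ12/Δ12 against +/+ among labelled males. In those males Rxrg had a log2 fold change of -0.0013 and Dlx6 of -0.15. In libraries labelled cortex no member passed (124 of 15696 genes, 0.79%), the lowest adjusted p among the 9 being 0.067 for Meis2.

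**Figure D5:**
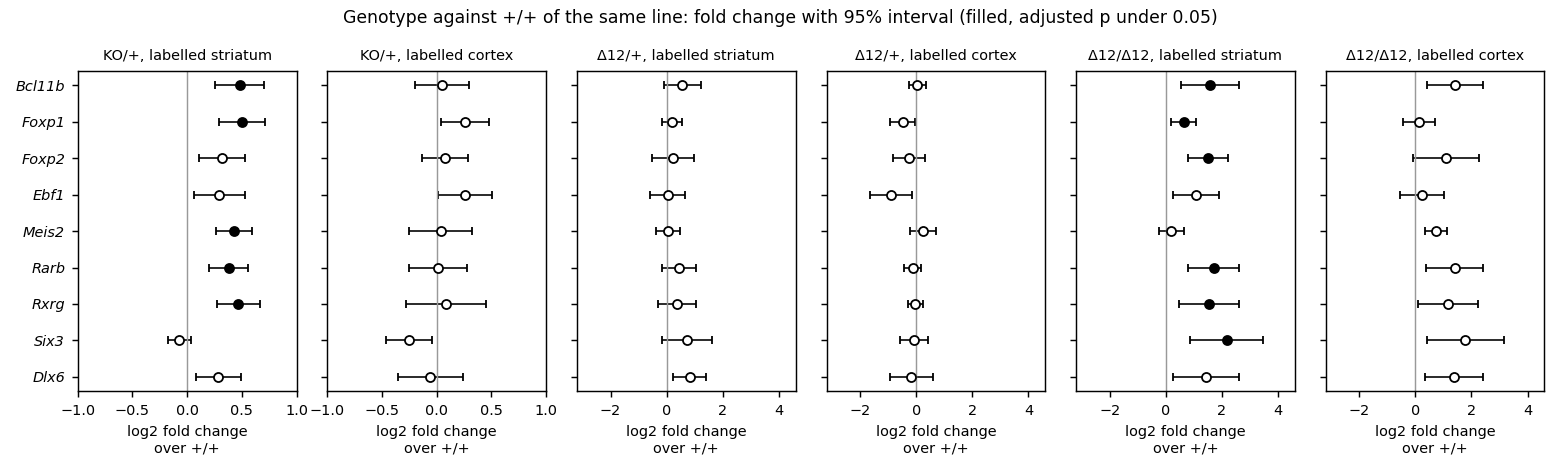
Log2 fold change over +/+ of the same line and labelled tissue for the 9 members, with 95% intervals, in the 6 genotype comparisons, filled where the adjusted p is under 0.05. The x axis spans -1 to 1 for KO/+ and is wider for the Δ12 line, whose Δ12/Δ12 groups hold cortex-like and striatum-like libraries and have wide intervals.

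The +/+ controls of the 2 lines differed as the tissue classes do. In libraries labelled striatum, 8 of 9 members were higher in the KO line than in the Δ12 line by limma, beside 41.9% of 15712 genes, with Six3 at a log2 of 4.13, Dlx6 at 3.11, Bcl11b at 3.00, Rarb at 2.98, Rxrg at 2.92, Foxp2 at 2.58, Ebf1 at 1.83 and Foxp1 at 0.85. Meis2 had 0.35 (adjusted p = 0.11). In libraries labelled cortex all 9 were higher, beside 36.3% of 15800 genes, from 0.84 for Foxp1 to 3.75 for Six3, with Meis2 at 1.14. Since all +/+ libraries of the KO line were striatum-like and all of the Δ12 line cortex-like, line and tissue class cannot be told apart. Between all libraries labelled striatum and all labelled cortex, limma called 0 of 16076 genes (393 had an unadjusted p under 0.05) and no member, whose log2 differences lay between -0.09 (Ebf1) and 0.22 (Meis2).

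Of 21 paralogues, 12 passed the filter on low values. Of these, 5 were wholly higher in the striatum-like libraries and none wholly lower, beside 19.3% and 16.9% of all entries. Meis1 was at a median of 4.73 against 0.438, Rarg at 3.46 against 0.357, Dlx5 at 4.5 against 0.570, Rxra at 7.32 against 1.33 and Bcl11a at 13.5 against 5.46. Rxrb, another partner of the retinoic acid receptors, was at 17.9 against 19.1, Meis3 at 8.47 against 8.62 and Dlx1 at 2.60 against 2.2, and these overlapped. Dlx6os1, the long noncoding RNA transcribed antisense to Dlx6, was at 5.79 against 4.88, beside 15.9 against 1.51 for Dlx6. Another entry of Dlx6os1 had a median of 0 in both classes, and reached 394 in the striatum-like libraries. Six3os1, which overlaps Six3 on the other strand, was at 4.42 against 0.421. Because the labels do not say whether reads were counted by strand, Dlx6, Six3, Ebf1 and Rarb, which overlap genes of the other strand, may share reads with them.

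Of 22 other transcription factors of the striatal lineage, 21 had an entry and 18 passed the filter. Of these, 10 were wholly higher and 1 wholly lower in the striatum-like libraries, beside 19.3% and 16.9% of all entries. Foxo1 was at a median of 13.0 against 0.523, Zfhx3 at 5.74 against 0.145, Egr3 at 29.9 against 2.94 and Isl1, a factor of direct-pathway and cholinergic neurons, at 4.78 against 0.850. Mef2c was the lower gene, at 28.3 against 58.5. Of 13 genes of retinoid transport and metabolism, 10 passed the filter, and none of these was wholly apart. Dhrs3, a retinaldehyde reductase, was at 9.87 against 3.65, and Crabp1, a retinoic acid binding protein, at 3.50 against 0.829. In the KO/+ comparison in libraries labelled striatum, 0 of 12 paralogues passed. The other lineage factors had 1 call higher (Egr3, 0.54) and 3 lower (Tshz2, -1.04, Zfhx4, -0.51, and Zfhx3, -0.26) of 18. Of all 15808 genes tested, 695 were called higher and 597 lower. Of 9 retinoid genes tested there, Aldh1a1, which makes retinoic acid, was lower (-0.65, adjusted p = 0.020).

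The members varied together to unlike degrees. Over the 30 striatum-like libraries, the 36 pairs of members had a median r of 0.51 (-0.25 to 0.89), highest for Meis2 with Rarb (0.89) and Bcl11b with Rxrg (0.88) and lowest for Ebf1 with Six3 (-0.25). Over the 30 cortex-like libraries the median was 0.24 (-0.19 to 0.85), highest for Rarb with Six3 (0.85). Among 13974 genes, those most like Meis2 in the striatum-like libraries were Drd2 (r = 0.95), Drd1 (0.95) and Gnal (0.95), and those most like Rarb were Drd1 (0.93), Gpr6 (0.92) and Pde10a (0.92). Bcl11b was most like Ngef (0.96), Pde2a (0.95) and Kcnj4 (0.95), and Rxrg like Kcnip2 (0.93), Ngef (0.93) and Pde2a (0.92). Foxp1 was most like Dlg2 (0.86), Cacna1e (0.84) and Lrrtm3 (0.83), and Foxp2 like Scn3a (0.87), Nbea (0.86) and Nlgn1 (0.85). Ebf1 was most like Csmd1 (0.84), Gm42608 (0.84) and Gm37006 (0.83). Six3 was most like Acly (0.80), Abat (0.79) and Slc18a3, the vesicular acetylcholine transporter (0.77), and Dlx6 like Nup93 (0.69), Tdrp (0.68) and Svil (0.68). In the cortex-like libraries Rarb was most like Adcy5 (0.84), Htr1b (0.83) and Pde10a (0.83), and Six3 like Unc13c (0.85) and Rarb. These values are given without a test, and the points share their libraries, scaling and mixture of cells.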

How the data were processed

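The authors deposited 1 table of FPKM values per library (rRNA-depleted total RNA, directional kit, NovaSeq6000), with 47597 gene entries, of which 23 were left out for their status. The submitters' processing notes name bcl2fastq 2.20, Trimmomatic 0.30, TopHat2 2.0.14, SAMtools 1.3, HTSeq 0.6.1p1 and GRCm38.p4. The program that made the FPKM, and whether reads were counted by strand, are not given in the sources used here. No read counts were used, and depth was estimated from the deposited FPKM intervals.

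FPKM was scaled by median ratios (13235 entries above 0 in all libraries), and log2(scaled FPKM + 0.5) of genes with a mean of at least 0.5 was tested with limma 3.58.1 (R 4.3.3), the labelled sex in the model and p-values adjusted over all genes by Benjamini-Hochberg (threshold 0.05). Fold changes on this scale understate those of low genes. Permutation tests were two-sided with 100000 resamples. Python 3.11.15, numpy 2.4.6 and pandas 2.3.3 were used. The fits were tested on simulated data. Groups follow the labels, including 1 KO/+ library whose title names the Δ12 line. The members and gene lists were chosen with earlier results of these data known. The rule for named genes took the 9 members, Htt, 2 to 4 examples of each list and the 3 genes most like each member. Beyond it, further paralogues and lineage factors were named after their values were seen, and the like genes of the cortex-like libraries are given for Rarb and Six3 alone. Alternatives were FPKM as deposited, quantile normalization, a pseudocount of 0.1, no filter, no sex covariate, a replicate block, tissue class as a covariate, labelled males only and leaving out each library.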

Additional observations from a re-analysis of the deposited data

Results flagged for a closer look

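In 7 of 90 groups of 6 libraries, 1 library stood far above the other 5. For independent groups of normally distributed values, chance gives about 4.5 groups with a library far above or far below the rest. The members share libraries and scaled FPKM was not log-transformed here, so that number is a rough guide only. The 90 include the Δ12/Δ12 groups, which mix the tissue classes. In scaled FPKM, in libraries labelled striatum Δ12/+, male 3 had Bcl11b at 27.0 (the next library at 13.4) and Rxrg at 13.0 (next 6.44). In libraries labelled cortex Δ12/+, male 2 had Ebf1 at 0.812 (next 0.471) and Rxrg at 4.95 (next 4.01). Rxrg was at 5.62 in cortex Δ12-line +/+ male 1 (next 4.21), Ebf1 at 4.2 in striatum KO-line +/+ female 2 (next 3.4) and Meis2 at 179 in cortex KO-line KO/+ female 2 (next 124).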

How the results depend on the processing

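The 6 members whose ranges were apart between the tissue classes were also apart on FPKM as deposited. Leaving libraries out cannot make such ranges overlap, and dividing by Drd2 placed 0 libraries otherwise, so these alternatives test nothing here. For KO/+ in libraries labelled striatum (1292 genes, 5 members), FPKM as deposited called 348 genes and 1 member, and leaving out 4 libraries with Slc17a7 above 20 FPKM, an alternative chosen after seeing the data, called 62 genes and 0 members. Leaving out each library gave 765 to 1444 genes and 5 to 6 members. For KO/+ in libraries labelled cortex (18 genes), FPKM as deposited called 147 genes, no sex covariate 38, and leaving out libraries by Slc17a7 9, with 5 to 28 when each library was left out. For Δ12/+, libraries labelled striatum (1 gene) gave 2 without the sex covariate and 1 to 2 leaving out each library, and those labelled cortex (8) gave 5 on FPKM as deposited, 54 after quantile normalization and 4 to 17. For Δ12/Δ12, libraries labelled striatum (4443 genes, 6 members) gave 4391 genes and 4 members on FPKM as deposited, 1412 and 2 without a filter, 9 and 0 without the sex covariate, 19 and 0 with tissue class as a covariate, 10 and 0 in labelled males, and 5 to 6351 genes and 0 to 8 members leaving out each library. Those labelled cortex (124 genes, 0 members) gave 75 on FPKM as deposited, 26 without a filter, 7 without the sex covariate, 10 with tissue class, 16 in labelled males, 1 member after quantile normalization, and 12 to 3994 genes and 0 to 4 members. With a replicate block, the counts for striatum and cortex labels were 697 and 2 genes for KO/+ and 0 and 1 for Δ12/+. For Δ12/Δ12 they were 5 and 6. The block left 5 members called for KO/+ in libraries labelled striatum and 0 in each of the other genotype comparisons. Within each of these and the line comparisons, same-numbered libraries did not deviate together (mean r of -0.093 to 0.0076, 0 pairs over 0.1). Between the labelled tissues, libraries of the same line, genotype, sex and number had r of -0.16 to 0.13 (mean -0.0074, 3 of 30 pairs over 0.1). With these pairs as a replicate block, chosen after seeing the data, the labelled tissues still gave 0 genes (886 at an unadjusted p under 0.05), and the difference in the KO/+ effect between them 0 genes (1921) and no member. Whether the pairs share a mouse is not known. With tissue class as a covariate and in labelled males alone, signs turned for Rxrg (-0.0013) and Dlx6 (-0.1489) in striatum and for Six3 (-0.1656) and Foxp1 (-0.3711) in cortex. Ebf1 in Δ12/+ striatum was -0.0042 as deposited and -0.1074 to 0.1787 leaving out each library, and Foxp1 in Δ12/Δ12 cortex -0.0624 to 0.2765. The Six3 relation to cortical markers had r = -0.3549 as deposited, where 0 members passed. The cause of these changes was not tested. FPKM intervals were widest for Ebf1, the lowest of the members in striatum-like libraries, and the part of depth in this was not tested.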
